A study of Mus musculus with 2 samples.

Results

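The H2 genes and the genes of class I peptide loading were read from a mouse oligonucleotide array as the probes whose gene name, in the array file or as a current symbol, starts with H2- or is B2m, Tap1, Tap2, Tapbp, Psmb8, Psmb9, Psmb10, Psme1, Psme2, Erap1 (Arts1 in the array file), Pdia3, Calr, Canx, Cd74 or Ciita. The names gave 52 genes with 83 probes, out of 27595 genes and 41174 probes on the array. A filter on dim probes kept 39 of the 52 genes and 61 of the 83 probes, out of 14912 genes and 21527 probes kept in all. The genes fall into 13 genes of class I loading, all 13 of them kept, the classical heavy chain (class Ia) genes H2-K1 and H2-D1, 22 nonclassical heavy chain (class Ib) genes, of which 11 were kept, and 12 class II genes and helpers, of which 10 were kept. H2-K2, a class I relative beside H2-K1 that RefSeq lists as a transcribed pseudogene, stands by itself, and Pfdn6 (H2-Ke2) and H2-Ke6 carry an H2 name for their position but encode no histocompatibility molecule.

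RNA of double-positive (DP) thymocytes, which carry CD4 and CD8, was compared on 2 arrays of 2 colours to ask what Bcl11b, a zinc finger transcription factor needed for T cell commitment, does in these cells ahead of selection. The Bcl11b-deficient sample came from Bcl11bF/FCD4Cre/Tcra-/- mice, whose floxed Bcl11b is recombined by a Cre under Cd4 control, and the control sample from TCRa-/- mice. Both groups lack Tcra, so neither forms an alpha beta T cell receptor or passes positive selection, and no Cre or floxed allele appears in the label of the controls, so an effect of Cre itself and the loss of Bcl11b cannot be told apart. Age, strain, the number of mice per sample, the way DP cells were obtained and the deleted part of Bcl11b are not given in the sources used here. Cy5 always marked the deficient RNA and Cy3 the control RNA, with no array in reverse orientation, so dye and genotype cannot be told apart in any ratio below.

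Class I molecules on the surface of most cells hold peptides made by the proteasome. Interferon-inducible subunits can replace catalytic subunits of the proteasome, the Tap1-Tap2 transporter moves the peptides into the endoplasmic reticulum, and there a loading complex with tapasin, calreticulin and Pdia3 fits them onto a heavy chain bound to beta-2-microglobulin. Class II molecules load peptides in endosomes and are found mainly on antigen-presenting cells and thymic epithelium; DP thymocytes are selected on class I and class II of the epithelium and carry little class I themselves.

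Each array held 43379 spots other than controls, of which 50.5% to 56.5% were well above background in the 4 channels. Of the Bcl11b probes, one gave log2 ratios of -1.37 and -2.16 and the other -1.40 and -0.28, in array order; where they lie against the deleted part is not known here. All 10 DP thymocyte markers looked up were well above background in both groups. After loess normalisation 3 of them were higher and 7 lower in the deficient sample on both arrays, with a median log2 ratio of -0.17. Over all genes 36.4% were higher and 38.5% lower on both arrays. The 3 were Cd8b1, Cd8a and Lck. From Agilent's processed signals Cd8a (-0.39 and -0.29) and Lck (-0.18 and -0.19) were lower on both arrays, and Cd8b1 gave 0.071 and 0.073. Markers of other cells were also seen, with 8 of 8 macrophage, 7 of 8 thymic epithelium, 6 of 7 B cell and 2 of 8 dendritic cell markers above background on both arrays in the deficient samples. The controls had the same counts except for 6 of 8 macrophage markers, since Csf1r and Mrc1 were above background there on 1 array, while Cd79a, Foxn1, Cd209a, Clec9a, Flt3 and Xcr1 were above background nowhere. These are bulk RNA samples, in which fewer cells of a type and less RNA per cell cannot be told apart, and the number of arrays limits the precision.

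Values below are log2 ratios of deficient over control after background correction and loess normalisation within each array, given for replicates 1 and 2 and as a mean ± SE (limma, n = 2 arrays). Each gene is represented by its brightest kept probe, a gene is called at an adjusted p under 0.05, and signals are Agilent's processed signals in scanner units, which compare samples for 1 probe but not 1 probe with another. With limma and Benjamini-Hochberg adjustment 0 of the 39 kept genes were called, against 0% of all 14912. At an unadjusted p under 0.05 limma put 11 of the 39 higher and 2 lower, where 15.1% of all genes were higher and 14.1% lower by that measure. Agilent's processed signals gave 0 calls among the 39 (0.878% of all genes) and so did the deposited value table (0.188% of all genes), while median centring gave 4 and separate-channel limma 6, named with each gene below.

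Of the 39 kept genes, 21 were higher in the deficient sample on both arrays and 7 lower on both, while 11 pointed in opposite ways. Over all genes the shares were 36.4% higher on both and 38.5% lower on both. With median centring 32 of the 39 were higher on both arrays, 12 loading and 9 class Ib genes among them, and 55% of all genes were. The median of the 39 was 0.11 (0.036 on replicate 1 and 0.20 on replicate 2) beside -0.0035 over all genes. A mean of at least 0.5 with both arrays higher was seen for 5 of the 39 (5.85% of all genes), namely Tap2, H2-K1, Psmb9, Psmb10 and Psmb8, and the converse for 1, H2-Q1 (2.85% of all genes). Replicate 2 gave the higher ratio for 31 of the 39 genes, as it did for 54.8% of all genes.

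**Figure D1:**
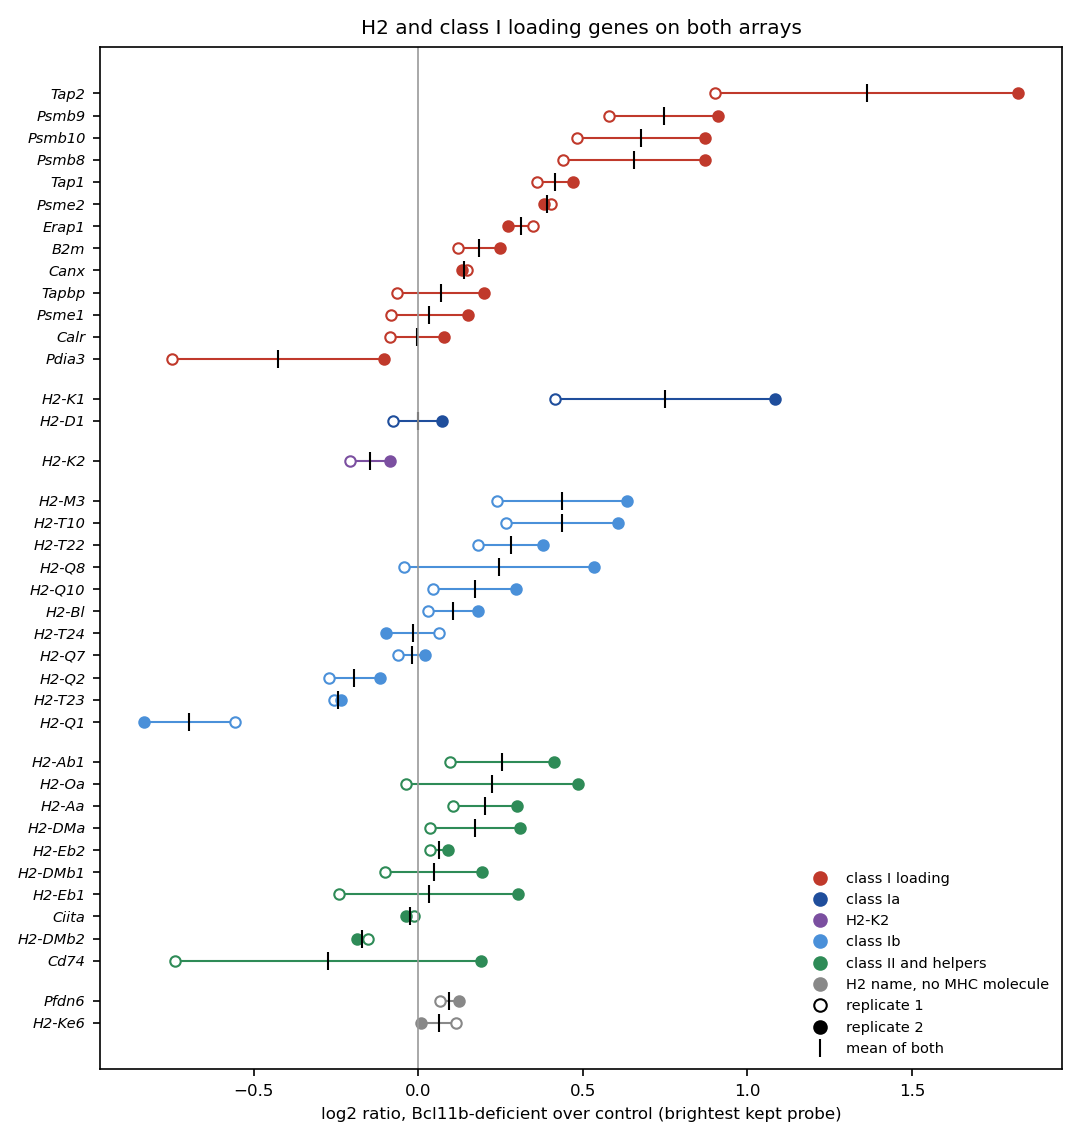
Log2 ratio of Bcl11b-deficient over control for the 39 kept genes, by class, from the brightest probe of each (open circle, replicate 1; filled circle, replicate 2; bar, mean). Tap2, Psmb9, Psmb10 and Psmb8 have the highest values of the loading genes on both arrays, H2-Q1 the lowest of class Ib, and most filled circles lie to the right of the open ones; with median centring H2-K2, H2-Q2, H2-T23, Calr, H2-D1 and H2-Q7 lie above 0.

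The loading genes had the highest median of the larger classes, 0.31 over 13 genes (0.35 and 0.27 on replicates 1 and 2), with 9 higher on both arrays, 1 lower on both and 3 of opposite sign. The transporter gene Tap2 (chr17:33825052-33825639, mm8) had deficient signals of 3001 and 3355 on replicates 1 and 2, and control signals of 1519 and 864. The deficient signal exceeded the control on both arrays, and the control signals differed more between arrays than the deficient ones. The log2 ratios were 0.90 and 1.82, with a mean of 1.36 ± 0.26 or 2.57-fold (limma, Benjamini-Hochberg adjusted p = 0.0934), rank 85 from the top of 14912 genes. Its partner Tap1 had signals of 590.2 and 475 against 406 and 275, ratios of 0.36 and 0.47 and a mean of 0.42 ± 0.076 (limma, Benjamini-Hochberg adjusted p = 0.091). Both subunits of the transporter were thus higher in the deficient sample on both arrays, without passing the test. From Agilent's processed signals the Tap1 mean was 0.67, from a probe that is dim.

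The immunoproteasome subunits lay close together. Psmb9 had signals of 12699 and 12577 in the deficient and 8363 and 6668 in the control channel, with ratios of 0.58 and 0.91 and a mean of 0.75 ± 0.11 (limma, Benjamini-Hochberg adjusted p = 0.0839). Psmb8 had 26336 and 28474 against 22493 and 17862, with ratios of 0.44 and 0.87 and a mean of 0.66 ± 0.13 (limma, Benjamini-Hochberg adjusted p = 0.100), and its other probe gave 0.41 and 0.91. From Agilent's processed signals the Psmb8 mean was 0.45, with 0.23 on replicate 1, and running-median centring gave a mean of 0.50. Psmb10, on another chromosome (chr8:108824906-108824965), had 17405 and 16614 against 12783 and 9257, with ratios of 0.48 and 0.87 and a mean of 0.68 ± 0.12 (limma, Benjamini-Hochberg adjusted p = 0.0917). For each of the 3 subunits both deficient signals were above both control signals, and in each the gap was wider on replicate 2, where the control signal was lower. Median centring called 4 of the 39 genes higher, Psmb8, Psmb9, Psmb10 and Psme2, where it called 5.87% of all genes higher and 6.58% in either direction. Unlike loess, it keeps any trend of the ratio with intensity, and these 4 had mean log2 intensities of 15.0 to 16.1. At an intensity of 14.9, H2-D1 went from -0.0017 with loess to 0.45 with median centring. Separate-channel limma, which models both channels of each array, called the same 4 and Tap2 higher, where it called 4.76% of all genes higher and 8.6% in either direction. After loess the subunits that these 3 replace were not higher on both arrays. Psmb5 gave -0.064 and -0.097, Psmb6 -0.028 and 0.035 and Psmb7 0.037 and -0.30. The list of constitutive proteasome subunits and activators also held Psmb11, Psme3, Psme4 and Pomp. Its median after loess was 0.0032 and its range -0.13 to 0.26. The top value was that of Psmb11, which also served here as a thymic epithelium marker. Median centring called Pomp higher, as it did 5.87% of all genes. The loess ratios of Pomp were 0.30 and -0.062, at a mean log2 intensity of 15.9.

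**Figure D2:**
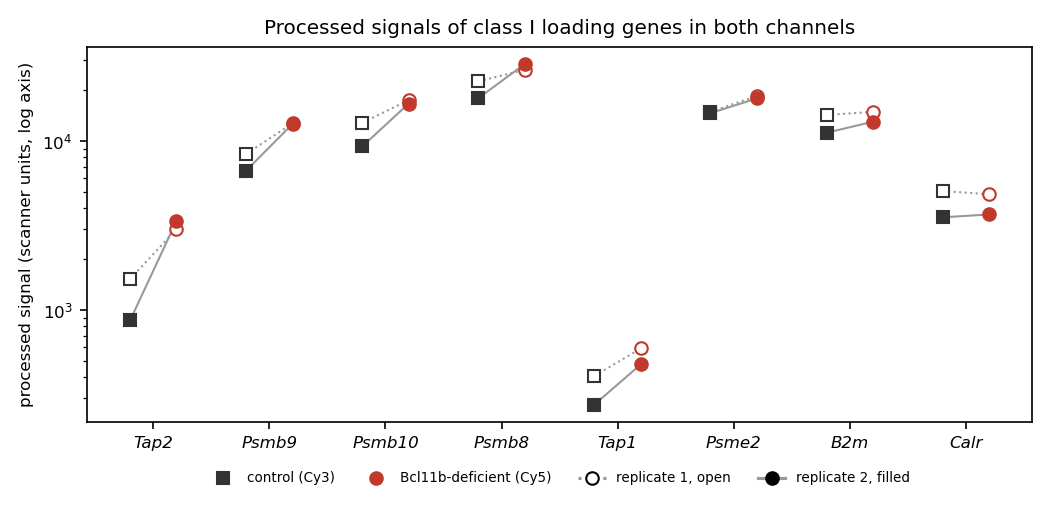
Agilent processed signals (scanner units, log axis) of 8 loading genes in the control (squares) and the deficient channel (circles) of replicate 1 (open, dotted line) and replicate 2 (filled, solid line). The lines of Tap2, Psmb9, Psmb10 and Psmb8 slope upward on both arrays and more steeply on replicate 2, while those of Calr are nearly level; heights compare channels of 1 gene, not genes.

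The proteasome activator subunit Psme2 had signals of 18434 and 17824 against 14846 and 14587 and ratios of 0.40 and 0.38, with a mean of 0.39 ± 0.070 (limma, Benjamini-Hochberg adjusted p = 0.0907). Both arrays had nearly the same ratio, and its other probe gave 0.20 and 0.13. From Agilent's processed signals the Psme2 mean was 0.30. The partner subunit Psme1 gave -0.082 and 0.15, with no common direction. The aminopeptidase Erap1, which trims peptides in the endoplasmic reticulum, gave 0.35 and 0.27 and a mean of 0.31 ± 0.073 (limma, Benjamini-Hochberg adjusted p = 0.113).

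B2m, the light chain shared by all class I molecules, had signals of 14833 and 12968 in the deficient and 14224 and 11162 in the control channel. Its ratios were 0.12 and 0.25 and the mean 0.19 ± 0.078 (limma, Benjamini-Hochberg adjusted p = 0.222). The other B2m probes gave 0.20 and 0.26, and 0.38 and 0.38, so all 3 probes were higher on both arrays. The chaperones of the loading complex were near 0 after loess, while median centring, which put B2m at 0.69 and Psme1 at 0.60, gave 0.53 for Canx, 0.40 for Tapbp and 0.31 for Calr, none of them called by limma after Benjamini-Hochberg adjustment. Tapbp, which is tapasin and bridges the transporter to the heavy chain, gave -0.063 and 0.20. The lectin chaperone Calr gave -0.086 and 0.077 from the brighter probe and 0.42 and -0.16 from the other. Canx, which folds new heavy chains, gave 0.15 and 0.13 from its brightest probe, while the dimmer probes gave 0.14 and -0.19, and 0.015 and -0.13. Pdia3, the thiol oxidoreductase of the complex, was the only loading gene lower on both arrays, at -0.75 and -0.10, with a mean of -0.43 ± 0.19 (limma, Benjamini-Hochberg adjusted p = 0.232). Its mean was -0.086 with median centring, and its value rests mainly on replicate 1, where the control signal was 9478 against 5209 on replicate 2.

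The upstream sequences of 4 stretches are shown because Psmb9, Tap1 and Psmb8 lie side by side and were all higher on both arrays, and B2m and H2-D1 carry the elements known from class I promoters. RefSeq promoter windows (GRCm38.p6, 250 bases before to 50 after each start) were matched by symbol for 40 of the 52 genes. Of the 39 kept genes, 10 had no window, namely H2-K2, Tap2, H2-Ab1, Ciita, Cd74, H2-T10, H2-Q8, H2-Bl, H2-T24 and H2-Q1, so the motif counts cover neither the highest nor the lowest mean ratio. Psmb9 and Tap1 are read in opposite directions from starts that lie 225 bases apart at chr17:34187331-34187555. The stretches of Psmb8 (chr17:34197945-34198194), B2m (chr2:122147437-122147686) and H2-D1 (chr17:35262844-35263093) are the 250 bases before each start, and all 4 are given 5′ to 3′ on the plus strand. Capitals mark matches on either strand to 5 motifs, namely the IRF motif (GAAA, any 2 bases, GAAA; bound by interferon regulatory factors), the NF-kB motif (GGGA, any base, T, any 2 bases, CC), TTCNNNGAA (GAS, the gamma-activated site), TGACG (the core of the X2 box) and CCAAT (the Y box). In H2-D1 the NF-kB matches overlap each other.
Psmb9-Tap1: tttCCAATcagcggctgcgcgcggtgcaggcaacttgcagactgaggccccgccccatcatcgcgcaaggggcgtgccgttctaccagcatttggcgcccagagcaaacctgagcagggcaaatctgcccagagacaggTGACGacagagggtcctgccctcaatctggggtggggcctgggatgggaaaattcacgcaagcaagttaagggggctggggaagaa
Psmb8: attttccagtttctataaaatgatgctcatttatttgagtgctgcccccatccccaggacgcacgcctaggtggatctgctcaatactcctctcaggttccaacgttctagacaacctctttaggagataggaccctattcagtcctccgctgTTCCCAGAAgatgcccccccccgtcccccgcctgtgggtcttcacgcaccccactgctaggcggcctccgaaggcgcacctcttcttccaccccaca
B2m: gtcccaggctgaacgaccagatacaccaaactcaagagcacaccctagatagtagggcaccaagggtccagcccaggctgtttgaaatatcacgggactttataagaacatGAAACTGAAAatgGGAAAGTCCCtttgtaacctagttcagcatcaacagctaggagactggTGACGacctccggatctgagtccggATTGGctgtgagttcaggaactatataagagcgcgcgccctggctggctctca
H2-D1: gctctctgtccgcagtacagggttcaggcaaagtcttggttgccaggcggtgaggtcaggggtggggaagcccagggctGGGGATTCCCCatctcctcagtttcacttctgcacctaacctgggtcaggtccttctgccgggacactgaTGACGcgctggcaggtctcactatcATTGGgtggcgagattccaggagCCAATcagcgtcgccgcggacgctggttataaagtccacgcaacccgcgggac

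The IRF motif was found for 5 of the 40 genes and in 3.44% of all 32851 windows of the table. Here a gene was counted if any of its windows matched, while the shares over all are of single windows. The 5 genes were B2m, Erap1, H2-T22, H2-T23 and Psme1, whose mean log2 ratios ran from -0.24 (H2-T23, which is 0.22 with median centring) to 0.31 (Erap1). The GAS letters were found for 4 of the 40 genes (8.3% of all windows), namely Psmb8, H2-M3, H2-DMb2 and H2-M11. The mean ratios were 0.66 for Psmb8, 0.44 for H2-M3 and -0.17 for H2-DMb2, while H2-M11 was not kept. The NF-kB motif was found for 7 genes (4.16% of all windows), namely B2m, H2-Aa, H2-D1, H2-K1, H2-M3, H2-Q7 and H2-T22. TGACG was found for 17 genes (20.8% of all windows) and CCAAT for 32 (37.4% of all windows). Only the exact letters were counted. A window without a match, such as that of H2-D1 for the IRF motif, may still hold a variant of the element. After loess, kept genes with the same letters thus differed in sign and size of the ratio. Whether the letters bear on the ratios was not tested. The H2 genes are copies of one another, so their windows are not independent of each other.

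Psmb9, Tap1, Psmb8 and Tap2 follow each other on chromosome 17 inside the class II part of the H2 region, with probes between chr17:33792517-33825639 (mm8 positions of the array files), and no other kept gene lay between them. Of the 9 kept genes within 100 kb of that stretch, the means ran from -0.17 (H2-DMb2) to 0.38 (Brd2, a chromatin reader that is no member). The class II genes on either side, H2-DMb1 and H2-Ab1, had means of 0.047 and 0.25. From the first to the last member in the region, chr17:33536605-36882517, 133 genes were kept, 29 of them members. The other 104 had a median of 0.0082. Of these, 45 were higher on both arrays (36.4% of all genes), and 13 of them had a mean of at least 0.5 (5.85% of all genes). High ratios in the region were thus not limited to members.

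**Figure D3:**
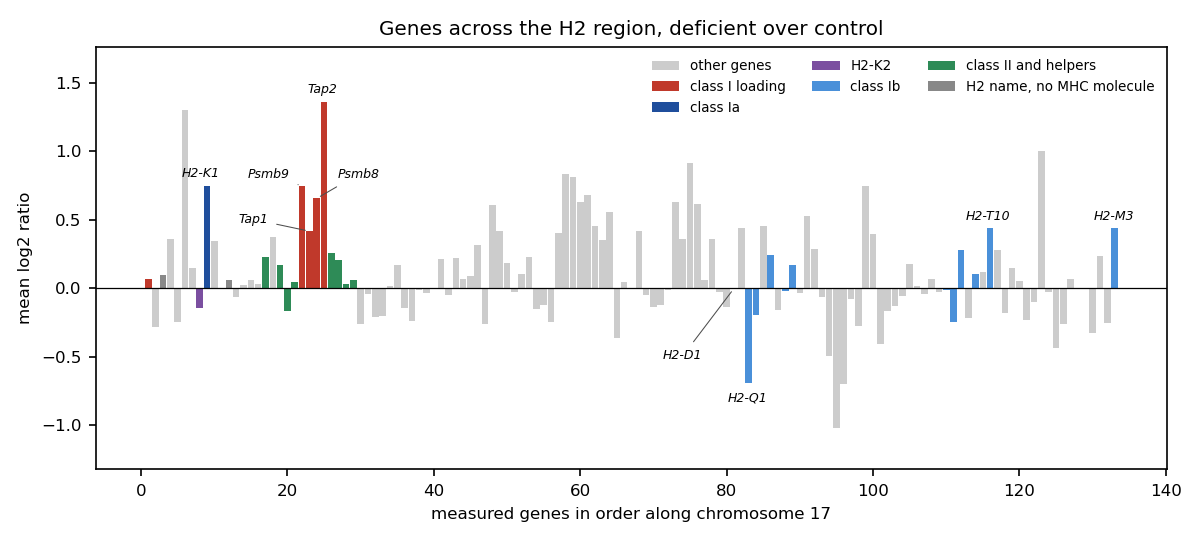
Mean log2 ratio of the 133 kept genes between the outermost members on chromosome 17, in chromosomal order and not to distance, with members coloured by class and other genes grey. The adjacent red bars of Psmb9, Tap1, Psmb8 and Tap2 stand between low class II bars, and grey bars of like height are seen elsewhere in the region; H2-K2, H2-Q2, H2-T23, H2-D1 and H2-Q7 lie above 0 with median centring.

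Among the class Ia genes H2-K1 was higher on both arrays and H2-D1 was not. The H2-K1 probe (chr17:33606564-33606623) had signals of 15552 and 12212 in the deficient and 11959 and 5622 in the control channel. Both deficient signals lay above both control signals, and the control signal of replicate 2 was the lowest. The ratios were 0.42 and 1.09, with a mean of 0.75 ± 0.19 or 1.68-fold (limma, Benjamini-Hochberg adjusted p = 0.122). The other H2-K1 probes gave 0.30 and 1.00, 0.36 and 0.66, and 0.089 and 0.10. The first of these overlaps the representing probe, and the last, at chr17:33609987-33610233, was near 0 on both arrays. The heavy chain H2-D1 had signals of 10552 and 9438 against 11201 and 8827 and ratios of -0.075 and 0.072 from its brighter probe (chr17:34874240-34874299; 0.45 as the mean with median centring). Its other probe gave 0.25 and 0.63 at chr17:34874545-34874777. The probes of H2-K2 disagreed in sign, with -0.21 and -0.084 from the brighter (a mean of 0.33 with median centring) and 0.23 and 0.74 from the dimmer. Class I heavy chain genes are close copies, probe sequences were not used here, and a probe may bind transcripts of more than 1 of them. Over all genes with several probes, 69.6% of the other probes had the sign of the brightest one; for the 15 such genes here it was 14 of 22 probes.

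**Figure D4:**
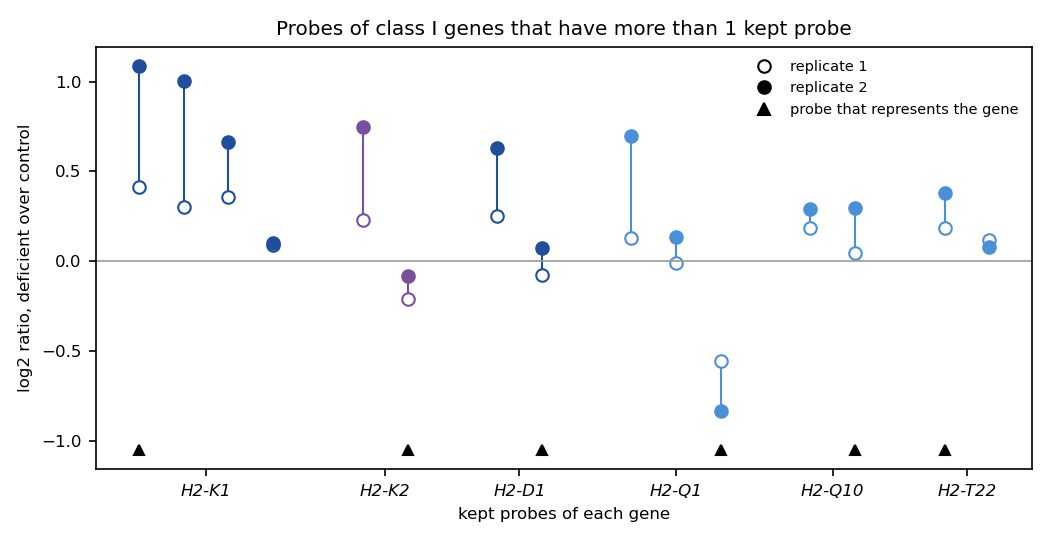
Log2 ratio of each kept probe on replicate 1 (open) and replicate 2 (filled) for the class I genes with more than 1 kept probe; triangles mark the probe that represents the gene. The H2-K1 probes run from near 0 to 1.09, the H2-K2 and H2-Q1 probes lie on both sides of 0, and the representing probes of H2-K2 and H2-D1 lie above 0 with median centring.

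Class Ib heavy chains, which include ligands of innate receptors and molecules for special peptides, varied around 0, with a median of 0.11 (0.030 on replicate 1 and 0.18 on replicate 2), 5 of 11 higher on both arrays and 3 lower on both. H2-M3, which presents formylated peptides, had signals of 1036 and 1085 against 859.6 and 658, ratios of 0.24 and 0.64 and a mean of 0.44 ± 0.13 (limma, Benjamini-Hochberg adjusted p = 0.140). H2-T10 and H2-T22, close copies of each other that are ligands of some gamma delta T cells and the former of which RefSeq lists as a transcribed pseudogene, were higher on both arrays too. H2-T10 had signals of 5581 and 7129 against 4606 and 4487 and ratios of 0.27 and 0.61, and H2-T22 had 2075 and 2617 against 1788 and 2037 and ratios of 0.18 and 0.38. The second H2-T22 probe gave 0.12 and 0.081.

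By its brightest probe H2-Q1 had the lowest mean ratio of the 39 genes, although Pdia3 and Cd74 were lower on replicate 1, and the mean over all 3 of its kept probes was -0.073. Its signals were 5149 and 4439 in the deficient and 7545 and 8024 in the control channel, so both deficient signals lay below both control signals. The ratios were -0.56 and -0.83, with a mean of -0.69 ± 0.10 or 0.618-fold (limma, Benjamini-Hochberg adjusted p = 0.0839), and -0.33 with median centring; separate-channel limma called it lower, as it did 3.84% of all genes. The other probes named H2-Q1 did not follow it, with -0.012 and 0.14 at chr17:34929602-34931174 and 0.13 and 0.70 at chr17:34992062-34992121, while the representing probe lies at chr17:34933059-34933118. The probe at chr17:34992062-34992121 lies beyond the H2-Q2 probe at chr17:34953221-34953280. It may therefore not read H2-Q1, which was not checked, and the mean of -0.073 includes it. H2-T23, which carries leader peptides of other class I chains and is read by NKG2 receptors, had signals of 10280.5 and 9218 against 12480.4 and 11012 and ratios of -0.25 and -0.23, with a mean of -0.24 ± 0.070 (limma, Benjamini-Hochberg adjusted p = 0.140); the mean turned to 0.22 with median centring. H2-Q2 gave -0.27 and -0.12 and turned to 0.26 likewise.

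H2-Q7, a Qa-2 gene, gave -0.060 and 0.022 from signals of 4994 and 4818 against 5095 and 4670.4, and its mean of -0.019 was 0.31 with median centring. H2-Q10 gave 0.046 and 0.30, H2-Bl 0.030 and 0.18, and H2-T24 0.064 and -0.097. H2-Q8 was level on replicate 1 and higher on replicate 2, at -0.042 and 0.53, from signals of 426 and 185 against 449 and 71.8. The 11 class Ib genes that were not kept were H2-M1, H2-M9, H2-M11, H2-M10.1 to H2-M10.6, H2-Q9 and H2-T3. The single H2-Q9 probe lies at chr17:35081885-35081944, between probes named for H2-Q10. The genes with an H2 name but no histocompatibility product were near 0, at 0.066 and 0.12 for the prefoldin subunit Pfdn6 and 0.12 and 0.0089 for the dehydrogenase H2-Ke6.

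The class II genes and their helpers had mean ratios near 0, while many of their signals differed between the arrays. Over the 10 kept genes the median ratio was 0.055, at -0.025 on replicate 1 and 0.25 on replicate 2, with 4 higher on both arrays, 2 lower on both and 4 of opposite sign. The beta chain H2-Ab1 had deficient signals of 5212 and 1875 and control signals of 4649 and 1423. Both samples of replicate 1 were thus higher than both of replicate 2. The ratios were 0.097 and 0.41, with a mean of 0.25 ± 0.11 (limma, Benjamini-Hochberg adjusted p = 0.227), and the other 3 probes were also higher on both arrays, at 0.21 and 0.30, 0.30 and 0.36, and 0.21 and 0.17. The alpha chain H2-Aa had 469.9 and 159 against 443 and 107 and ratios of 0.11 and 0.30. The other beta chain, H2-Eb1, had 901 and 453 against 1065 and 315 and ratios of opposite sign, -0.24 and 0.30.

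Cd74, the invariant chain that guards the class II groove, had signals of 5946 and 2001 against 9813 and 1731. The control signal was above the deficient one on replicate 1 and slightly below it on replicate 2, with ratios of -0.74 and 0.19 and a mean of -0.27 ± 0.26 (limma, Benjamini-Hochberg adjusted p = 0.510). Ciita, the master regulator of class II transcription, gave -0.012 and -0.038 from 219 and 115 against 223 and 126. Of the genes of H2-DM, which exchanges peptides on class II, H2-DMa gave 0.036 and 0.31, H2-DMb1 -0.10 and 0.19 and H2-DMb2 -0.15 and -0.19. H2-Oa, a chain of the H2-DM inhibitor H2-O, gave -0.038 and 0.49 and its other probe 0.047 and 0.40. H2-Eb2 gave 0.036 and 0.090. H2-Ea, which RefSeq lists as a transcribed pseudogene, and H2-Ob, the partner of H2-Oa, were not well above background in either group on both arrays.

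Of the 10 class II genes and helpers, 7 had a processed signal at least 1.5-fold higher on replicate 1 than on replicate 2 in both channels, as did 2.47% of all kept genes. These were Cd74, H2-Aa, H2-Ab1, H2-DMb1, H2-Eb1, H2-DMb2 and Ciita. The ratio of replicate 1 to replicate 2 reached 2.97 in the deficient and 5.67 in the control channel for Cd74, beside medians of 1.03 and 1.04 over all genes. None of the 13 loading genes and neither class Ia gene met that measure, while H2-Bl and H2-Q8 of class Ib did. The summed signal of 8 thymic epithelium markers also differed between arrays, at 17745 and 5005 for the deficient and 24916 and 4242 for the control samples. The part of these cells in the class II signals was not tested. Class II values are therefore given per array, and the comparison of genotypes rests on ratios within an array.

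**Figure D5:**
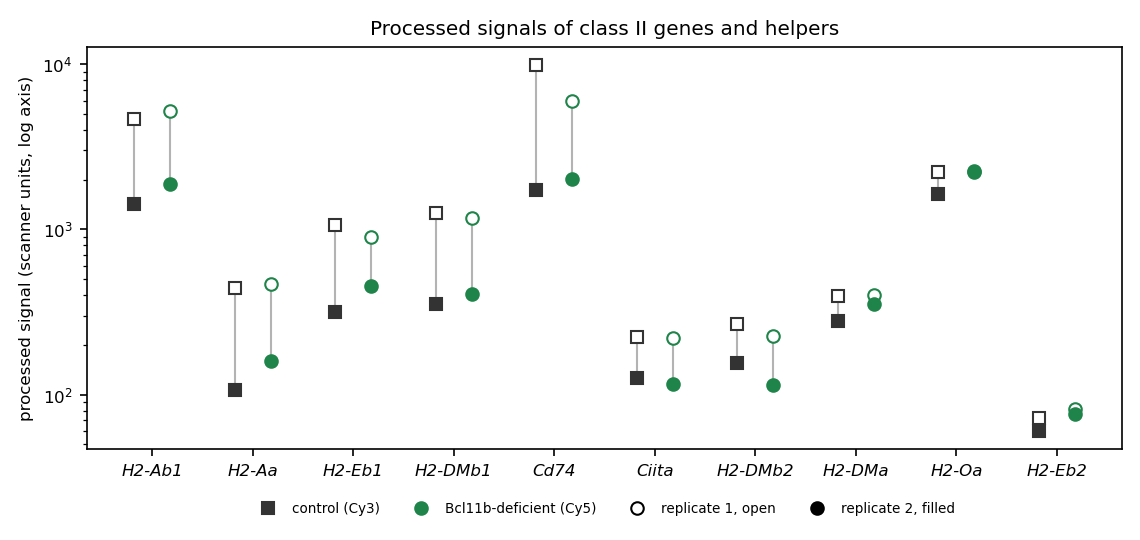
Agilent processed signals (scanner units, log axis) of the 10 kept class II genes and helpers in the control (squares) and deficient channel (circles) of replicate 1 (open) and replicate 2 (filled), with a line joining the arrays. For H2-Ab1, H2-Aa, H2-Eb1, H2-DMb1 and Cd74 the open symbols of both channels lie above the filled ones, by 1.99-fold to 5.67-fold.

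Markers of other cells differed in direction. Of 8 macrophage markers, 7 were higher in the deficient sample on both arrays, with a median of 0.34, and their summed signal was 30538 and 31187 in the deficient and 27170 and 10579 in the control channel. Most of each sum came from Lyz2, of macrophages and granulocytes, with signals of 25054 and 28033 against 23207 and 8756 and ratios of 0.31 and 1.75, and the sums differed more on replicate 2, as did Tap2, H2-K1 and the immunoproteasome genes. Of the 8 markers, 6 had the higher ratio on replicate 2, among them Adgre1 (0.73 and 1.12), Csf1r (-0.0092 and 0.95) and Fcgr1 (0.17 and 0.42). Cd68 (0.44 and 0.090) and C1qb (0.46 and 0.19) had the higher ratio on replicate 1, and C1qa gave 0.24 and 0.25. Mrc1 gave 0.35 and 0.37 after loess but 0.55 and 2.14 from Agilent's processed signals. Its control signal on replicate 2 was only 15.2. The summed signal of 7 B cell markers was 41950 and 40345 against 33770 and 17523, most of it from Ighm at 0.71 and 1.60. Cd79b gave -0.62 and -0.31 and Cd22 -0.45 and -0.36. Of 6 kept B cell markers, 1 was higher on both arrays and 3 lower on both, with a median of -0.31. Of 7 kept thymic epithelium markers, 0 were higher on both arrays, 3 lower on both and 4 of opposite sign. Their median was -0.22, at -0.44 on replicate 1 and 0.22 on replicate 2. The 8 dendritic cell markers summed to 529 and 395 against 426 and 325. The part of these cells in the class I and loading values was not tested.

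The other genes of the pathway comprised 50 listed regulators, proteasome subunits, chaperones, proteases, class I-like molecules and coreceptors, of which 49 were on the array and 43 kept. With limma and Benjamini-Hochberg adjustment 0 of the 43 were called (0% of all genes), and 5 were higher and 7 lower at an unadjusted p under 0.05 (15.1% and 14.1% of all genes). Of the 43, 13 were higher on both arrays and 14 lower on both (36.4% and 38.5% of all genes), with a median of 0.0094. Median centring called 7 higher (5.87% of all genes), Ifngr1, Irf1, Cd8a, Cd8b1, Ctsb, Jak1 and Pomp. Separate-channel limma called Ifngr1, Irf1 and Cd8b1 higher (4.76% of all genes) and Mr1 and Jak2 lower (3.84% of all genes). Nlrc5, the class I transactivator, was not on the array, and Rfx5 was not kept.

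Among the regulators, the interferon-gamma receptor chain Ifngr1 had signals of 51516 and 50898 in the deficient and 32788 and 21445 in the control channel and ratios of 1.03 and 1.49, with a mean of 1.26 ± 0.14 (limma, Benjamini-Hochberg adjusted p = 0.0751). Irf1, a transcription factor that acts at many of the class I and loading genes, had 9259 and 10978 against 5294 and 4994 and ratios of 0.75 and 1.07, with a mean of 0.91 ± 0.11 (limma, Benjamini-Hochberg adjusted p = 0.0763). Both deficient signals were above both control signals for each. The other receptor chain and its kinase pointed the other way, with -0.31 and -0.47 for Ifngr2 and -0.62 and -0.36 for Jak2. Of 12 interferon-response genes 10 were kept, with a median of 0.040 and 4 higher on both arrays. Irgm1 gave 0.47 and 0.60 and Igtp -0.25 and -0.46, both of them genes that interferon-gamma induces, and Gbp2 gave -0.026 and 0.049. The class I-like gene Mr1, which presents vitamin B metabolites, gave -0.66 and -0.87, with a mean of -0.77 ± 0.090 (limma, Benjamini-Hochberg adjusted p = 0.0751). Ctsl, a protease of the class II path, gave -0.56 and -0.66, with a mean of -0.61 ± 0.076 (limma, Benjamini-Hochberg adjusted p = 0.0767). Median centring left -0.068 for Ctsl (limma, Benjamini-Hochberg adjusted p = 0.619), and separate-channel limma did not call it (limma, Benjamini-Hochberg adjusted p = 0.179).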

How the data were processed

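Each array gave 1 log2 ratio of Bcl11b-deficient (Cy5) over control (Cy3) RNA. Scans were quantified by the authors in Agilent Feature Extraction 9.5.3.1, per the submitters' processing notes. The deposited mean, local background and processed signals are intensity values in scanner units, per the file headers; the processed ones were background-corrected and dye-normalised by Feature Extraction. The deposited value table has no stated unit and equals the log10 ratio of the deposited array files (processed Cy5 over Cy3) within 0.005, with a median of 0 on both arrays. It was used as an alternative.

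Mean signals were corrected on the local background by normexp (offset 50) and loess-normalised per array without weight on controls (limma 3.58.1 and statmod 1.5.0 in R 4.3.3). Spots that Feature Extraction marked non-uniform or outlying (108 and 116) were dropped, and the spots of a probe were averaged. A probe was kept if all arrays had it well above background in at least 1 of the genotypes, and the brightest kept probe stood for its gene. RefSeq's table named 24490 probes by accession, 6234 by symbol and 2391 by synonym, and 8059 probes kept the name in the file. Mean ratios were tested against 0 with limma on all 14912 genes, with 1 residual and 2.52 prior degrees of freedom (prior SD 0.117), adjusted by Benjamini-Hochberg. Alternatives were Agilent's processed signals, the value table, median or running-median centring, other filters, the mean of probes, separate-channel limma and single arrays; the script was tested on simulated data. All kept members were described, and other pathway genes were named for a mean of at least 0.5 in size with both arrays alike; Psmb5, Psmb6, Psmb7, Ifngr2, Jak2, Brd2, other called pathway genes and the marker genes were named after their values were seen, as was the comparison of signals between arrays. A gene of the lists is not reported here. Members and lists were chosen with earlier results of these data known.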

Additional observations from a re-analysis of the deposited data

How the results depend on the processing

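With median centring in place of loess the median of all genes moved to 0.13, 981 genes were called (876 higher, 105 lower), 4 of the 39 members and 7 of the other pathway genes among them. The medians became 0.83 for class Ia, 0.27 for class Ib, 0.60 for loading genes and 0.40 for all members, 32 of which were higher on both arrays, and the signs turned for H2-K2 (0.33), Calr (0.31), H2-D1 (0.45), H2-Q7 (0.31), H2-Q2 (0.26) and H2-T23 (0.22). Separate-channel limma called 1282 genes (710 higher, 572 lower), 6 members and 5 other pathway genes. Agilent's processed signals gave 131 calls (74 higher, 57 lower) and 28 came from the deposited values (22 higher, 6 lower), no member among them, and both turned Psme1 (-0.072), H2-D1 (0.0052 and 0.0053) and H2-Q7 (0.0079). Running-median centring turned Psme1 (-0.044), Calr (0.033), H2-D1 (0.028) and H2-Q7 (0.047), and the mean of a gene's kept probes turned H2-K2 (0.17), Calr (0.063) and H2-D1 (0.22) and left -0.073 for H2-Q1. Keeping all probes or only those above background in both channels turned no member's sign. These and the preceding pair of settings called no gene with limma, with 9748, 3596, 4210 and 4552 genes at an unadjusted p under 0.05 for all probes, both channels, running-median centring and the mean of probes. Median centring shifts all ratios of an array by 1 value, while loess also removes a trend of the ratio with intensity. From loess to median centring, Psmb8 (mean log2 intensity 16.1) went from 0.66 to 1.25. H2-D1 (14.9) went from -0.0017 to 0.45 and H2-Eb2 (9.31) from 0.063 to 0.024. Why values moved under the other settings was not tested.

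Leaving out 1 array, the class II median ranged from -0.025 to 0.25. The sign turned for Tapbp (-0.063 to 0.20), Psme1 (-0.082 to 0.15), Calr (-0.086 to 0.077), H2-Oa (-0.038 to 0.49), H2-DMb1 (-0.10 to 0.19), H2-Eb1 (-0.24 to 0.30), Cd74 (-0.74 to 0.19), H2-D1 (-0.075 to 0.072), H2-Q7 (-0.060 to 0.022), H2-Q8 (-0.042 to 0.53) and H2-T24 (-0.097 to 0.064). One array leaves no residual degree of freedom, so these are values with no test. The test of ratios within an array is itself paired. Limits shared by all values are the 2 arrays, the single dye orientation and probes that may bind several class I genes.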
